A study of Mus musculus with 32 samples.

Results

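RNA counts from mouse tibialis anterior, a fast muscle of the lower hind limb, were examined for 57 protease genes of the ADAM and ADAMTS families among the 54532 genes of the table. ADAM stands for a disintegrin and metalloproteinase, and ADAMTS for the same with thrombospondin motifs. A gene was taken if its biotype was protein-coding and its symbol began with Adam and a digit or with Adamts. That gave 33 ADAM genes, 19 ADAMTS genes and 5 ADAMTS-like genes, symbols Adamtsl1 to Adamtsl5.

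All mice were C57BL/6J, and the 8 groups held 4 libraries each. The groups were old mice given BI01 at day 7 and day 35 after injury, old mice given vehicle at day 7, at day 35 and uninjured, and young mice given vehicle at day 7, at day 35 and uninjured. Injury was by barium chloride, written BaCl in the labels, which destroys muscle fibres and is followed by regeneration. The labels call BI01 senolytic, a word for agents that clear senescent cells. According to the title, it acts by inhibiting p53-MDM2 binding. The labels used here give neither an age in months nor a separate animal for each library, so p-values refer to the spread among these libraries. Each library is called by its group and its number in the table.

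Total counts were 14129350 to 30439358 per library. Uninjured libraries carry PBS and the name of the 35-day set in the table, so for day 7 against uninjured muscle the injury and the collection set cannot be told apart. The tissue label was checked against 8 muscle fibre genes, whose summed level was 178200 to 183700 CPM in old and 198700 to 255400 CPM in young uninjured muscle. CPM stands for a gene's count as a share of its library's total, after TMM scaling, edgeR's factor for differences in RNA composition. Old vehicle library 7 at day 7 stood apart, with a summed fibre level of 10200 CPM against 49870 to 63080 CPM in the other 3 libraries of its group, and it was the highest of its group for 18 of the 34 members tested. Young library 7 at day 7 stood apart the other way, with 138400 CPM against 65930 to 91550 CPM in the other 3, and was the lowest of its group for 21 members, among them Adam12, Adam8 and Adamts14.

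ADAM proteins are membrane-anchored enzymes that cut the outer part off other membrane proteins, a step called ectodomain shedding, which frees growth factors and cytokines and starts Notch signalling. ADAMTS proteins are secreted and act on the extracellular matrix: they trim procollagens and cut proteoglycans such as versican and aggrecan. ADAMTS-like proteins have the matrix-binding repeats without the protease domain. In regenerating muscle Adam12, also called meltrin alpha, is known from fusing myoblasts, and removal of versican by ADAMTS enzymes is known to be part of myoblast fusion in mouse cells.

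The active site of both families is a zinc-binding stretch in which 3 histidines hold the metal and a glutamate takes part in the cut. In reference coding sequences (GENCODE vM39), 38 of the 57 genes and 24 of the 34 tested genes encode it. It was found in 8 of 8 tested sheddases, in 0 of 5 ADAMTS-like genes and in 0 of 3 of the neural ADAM genes Adam11, Adam22 and Adam23. The 11 codons are shown for the genes on which the results turn, 5′ to 3′ on the coding strand. Capitals mark the codons of the first histidine, the glutamate, the second histidine, the glycine or asparagine that follows, and the third histidine.
Adam8: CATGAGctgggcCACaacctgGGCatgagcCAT
Adam9: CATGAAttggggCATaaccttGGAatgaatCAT
Adam10: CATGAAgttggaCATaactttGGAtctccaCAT
Adam12: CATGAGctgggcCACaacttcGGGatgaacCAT
Adam17: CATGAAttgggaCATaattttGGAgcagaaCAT
Adam19: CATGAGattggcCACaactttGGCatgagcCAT
Adamts1: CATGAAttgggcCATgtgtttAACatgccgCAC
Adamts2: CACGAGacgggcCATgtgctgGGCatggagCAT
Adamts4: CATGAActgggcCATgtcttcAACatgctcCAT
Adamts5: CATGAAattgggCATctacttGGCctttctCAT
Adamts14: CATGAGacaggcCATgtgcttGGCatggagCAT
Adamts20: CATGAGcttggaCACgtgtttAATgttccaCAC
In 19 of the tested genes the fourth capital codon was glycine, as in Adam12 and Adamts5. In 5 it was asparagine: Adamts1, Adamts4, Adamts9, Adamts15 and Adamts20, which all belong to the versican- and aggrecan-cleaving group. Adam10 and Adam17 shared 26 of the 33 bases, fewer than some other pairs, such as Adamts2 and Adamts14 with 30. Adamts8 matched neither form. Whether it has the histidines and the glutamate with another residue at that place was not searched, so it is not shown to lack the site.

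The 250 bases before the start were on hand for 22 promoters of tested genes, 3 of them of Adam19 (RefSeq, GRCm38.p6). They are shown for 3 genes with different courses: Adamts2 (chr11:50601835-50602084, plus strand), which rose at day 7, Adamtsl4 (chr3:95687918-95688167, minus strand), which rose at day 35 in young muscle, and Adamts1 (chr16:85803114-85803363, minus strand), which fell in young muscle. Capitals mark matches on either strand, which may overlap. The GC box was searched as GGGCGG, and the E-box of myogenic factors as CAGCTG. The TATA box was searched as TATAAA. AP-1 sites were searched as TGANTCA, and TEAD sites as GGAATG. STAT sites were searched as TTCNNNGAA, and sites of C/EBP factors as TTGCNNCAA.
Adamts2: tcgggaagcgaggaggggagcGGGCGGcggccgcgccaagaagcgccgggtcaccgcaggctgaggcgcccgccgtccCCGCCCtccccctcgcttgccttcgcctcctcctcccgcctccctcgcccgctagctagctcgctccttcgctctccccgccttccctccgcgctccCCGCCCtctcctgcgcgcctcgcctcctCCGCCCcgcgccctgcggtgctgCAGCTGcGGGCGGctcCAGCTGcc
Adamtsl4: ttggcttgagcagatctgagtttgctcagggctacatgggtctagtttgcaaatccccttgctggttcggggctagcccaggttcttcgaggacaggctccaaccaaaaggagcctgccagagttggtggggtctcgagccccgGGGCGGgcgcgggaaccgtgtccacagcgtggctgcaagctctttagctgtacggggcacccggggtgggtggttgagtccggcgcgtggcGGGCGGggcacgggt
Adamts1: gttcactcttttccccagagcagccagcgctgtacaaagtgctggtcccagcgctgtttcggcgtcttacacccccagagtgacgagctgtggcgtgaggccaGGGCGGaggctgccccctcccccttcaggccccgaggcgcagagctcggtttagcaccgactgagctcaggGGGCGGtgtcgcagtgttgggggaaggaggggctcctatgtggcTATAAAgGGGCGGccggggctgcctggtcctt
In the 250 bases shown, Adamts2 held GC boxes and E-boxes, Adamtsl4 GC boxes only, and Adamts1 GC boxes and TATAAA. The shares below were counted over a longer window, which also held bases after the start. They are therefore not shares of the 250-base windows. GC boxes were in 68.2% of the 22 promoters and 35.7% of all 32851, and E-boxes in 36.4% and 16.3%. AP-1 letters were in 4.55% of the 22 and 7.81% of all, and TATAAA in 9.09% and 13.6%. TEAD letters were in 9.09% and 14.7%, STAT letters in 0 of the 22 and 8.3% of all, and C/EBP letters in 0 of the 22 and 2.08% of all. These are matches of letters, given as a description.

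Of the 57 genes, 34 had enough counts to be tested. The other 23 were mostly ADAM genes of germ cells: 11 had no count in any of 32 libraries, and 12 had counts, at most 138 in all. They included Adam28, Adamts13, Adamts18 and Adamts19 besides 19 germ cell genes, and no change is given for them. Because a gene passes this filter through the group in which it is high, the counts below describe tested genes and not the families as a whole. Strand is not recorded in the sources used here, so members whose gene models overlap others carry some uncertainty, among them Adamts7, which overlaps Tbc1d2b, Adam17, which overlaps Iah1, and Adamts9, which overlaps models on the other strand.

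Levels were compared between genes per kilobase of gene length. Adam9 was the highest of the family in each of the 8 groups, at 33.8 ± 1.77 CPM per kilobase in old and 35.7 ± 0.529 in young uninjured muscle (SD, n = 4 each). In uninjured muscle the next were Adamtsl5 in old and Adamts1 in young mice, with 9.18 ± 1.61 and 12.7 ± 3.71 CPM per kilobase. At day 7 the order was different: Adam10 was second in both ages. Adam8, Adamts2 and Adam19 followed in old vehicle muscle, and Adam19 and Adamts2 in young muscle. The place of Adam8 rested on old vehicle library 7, with 127.1 CPM against 19.82 to 36.79 CPM in the others of its group. Its mean there was 10.97 ± 11.09 CPM per kilobase (SD, n = 4). This place is therefore not read as a difference between the ages. Adam12 reached 7.75 ± 3.46 CPM per kilobase at day 7 against 0.0509 ± 0.0266 uninjured in old vehicle muscle, and 5.83 ± 2.79 against 0.0129 ± 0.00963 in young muscle. The summed level of the family was 747.8 to 1176 CPM at day 7 against 319.4 to 371.2 CPM uninjured in old vehicle muscle, and 688.6 to 950.7 against 347.7 to 425.9 CPM in young muscle.

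**Figure D1:**
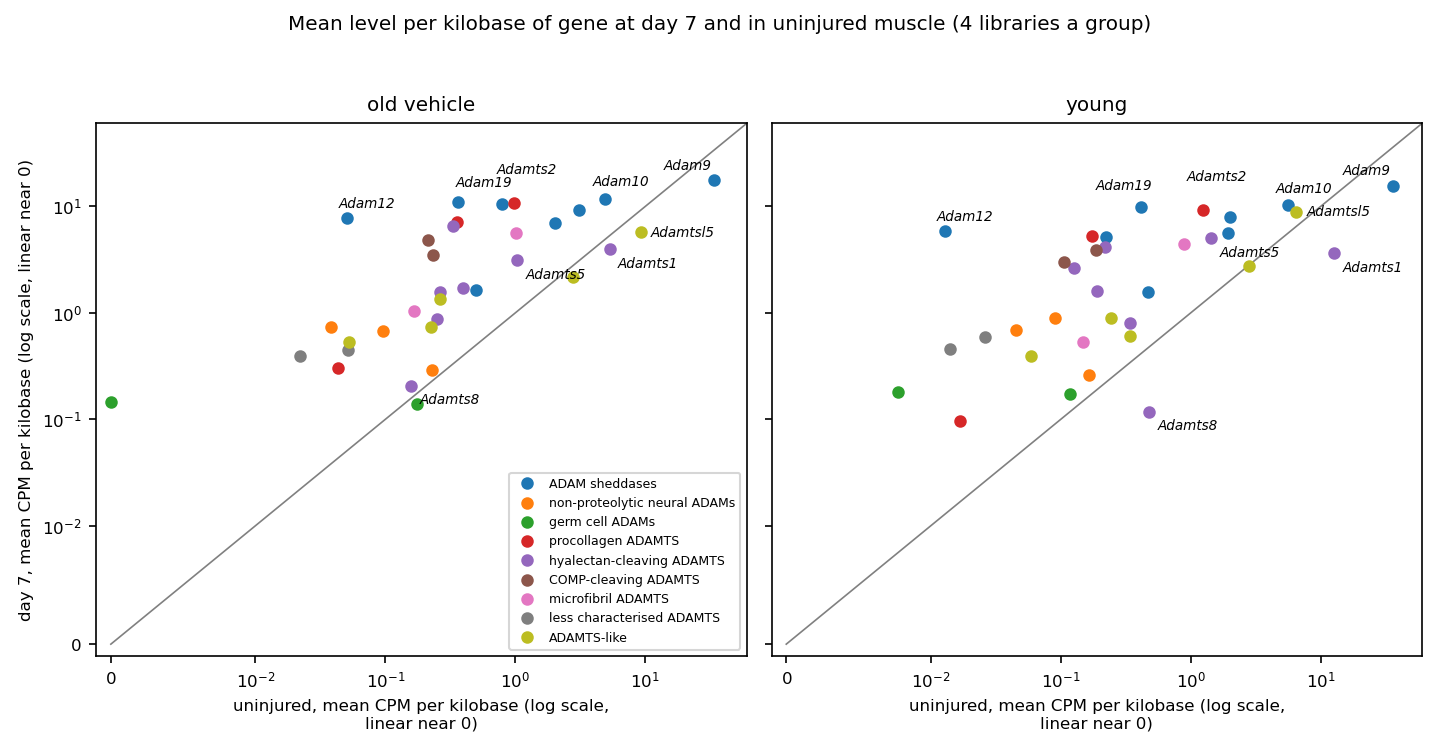
Mean level per kilobase of gene length at day 7 (vertical axis) against uninjured muscle (horizontal axis) for the 34 tested genes, in old vehicle muscle on the left and young muscle on the right, coloured by role. Each point is a mean of 4 libraries, and the grey line marks equal levels. Most points lie above the line. Adam9 lies below it in both panels, Adamts1 and Adamts8 lie clearly below it in the young panel, and Adam12 lies far above it in both.

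At day 7 most of the tested family was higher than in uninjured muscle in both ages. In old vehicle muscle 27 of 34 genes rose and 2 fell, against a background of 64.2% of all 17121 tested genes called in either direction. In young muscle 26 rose and 3 fell, against 60.8%. A call is an adjusted p under 0.05 in edgeR's quasi-likelihood test with Benjamini-Hochberg adjustment over all tested genes. The median log2 fold change of the family was 2.51 in old vehicle and 2.39 in young muscle, beside 0.14 and 0.17 for all tested genes. Scaling by library size alone moved the median of all genes to 1.15 in old vehicle and 1.05 in young muscle, and called 30 genes of the family higher and 0 lower in old vehicle, and 31 higher and 1 lower in young muscle. All 26 genes that rose in young muscle also rose in old vehicle muscle, where Adamts3 was called as well. Without old vehicle library 7 of day 7, 29 genes were called in old vehicle muscle, and without young library 7 of day 7, 29 in young muscle, the same counts as with them. The 2 ages share no library. In bulk muscle, fewer cells of a type and less RNA per cell cannot be told apart.

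Among sheddases, 7 of the 8 tested genes rose at day 7 in each age and Adam9 fell. Adam12 (chr7:133883199-134232146, minus strand, mm10) changed by the largest factor. Old vehicle muscle had 0.229, 0.876, 0.64 and 0.407 CPM uninjured, 128, 58.2, 47.3 and 94.4 CPM at day 7 and 0.953, 1.1, 1.34 and 0.405 CPM at day 35. In young muscle it had 0.0773, 0.089, 0.092 and 0.289 CPM uninjured, 92.9, 76.5, 52.1 and 25.2 CPM at day 7 and 1.1, 0.0532, 1.08 and 0.941 CPM at day 35. The day 7 libraries stood far above all others, and at day 35 the level was low again in every library. The log2 fold change at day 7 was 7.17 ± 0.57 (SE, adjusted p = 2.77e-11) in old vehicle and 8.79 ± 0.70 (SE, adjusted p = 3.96e-11) in young muscle, and 9.39 in young muscle without uninjured library 4.

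Adam8, a sheddase known from leukocytes and macrophages, had 1.14, 3.03, 1.68 and 0.814 CPM uninjured, 127, 36.8, 19.8 and 19.9 CPM at day 7 and 2.67, 1.35, 1.34 and 1.62 CPM at day 35 in old vehicle muscle. Young muscle had 0.851, 2.49, 0.276 and 0.482 CPM uninjured, 36.8, 35.1, 15.8 and 8.93 CPM at day 7 and 1.03, 1.7, 1.16 and 0.627 CPM at day 35. Old vehicle library 7 at day 7 was the highest by far, and no day 7 library overlapped an uninjured one. The log2 fold changes at day 7 were 4.89 ± 0.74 (SE, adjusted p = 2.41e-06) in old vehicle and 4.54 ± 0.79 (SE, adjusted p = 1.92e-05) in young muscle. They were 3.89 in old vehicle muscle without library 7 of day 7, and 5.44 in young muscle without uninjured library 2.

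Adam19, or meltrin beta, had 3.89, 9.36, 6.16 and 2.89 CPM uninjured, 82.4, 73.5, 59.5 and 86 CPM at day 7 and 13.5, 13.6, 14.7 and 9.23 CPM at day 35 in old vehicle muscle. The young libraries held 2.17, 4.09, 2.94 and 2.6 CPM uninjured, 81.7, 71, 74.6 and 53.6 CPM at day 7 and 6.97, 4.62, 5.56 and 4.78 CPM at day 35. Every day 7 library was several times above every uninjured and day 35 library. It rose by 3.74 ± 0.32 (SE, adjusted p = 6.63e-11) in old vehicle and 4.57 ± 0.35 (SE, adjusted p = 7.78e-12) in young muscle.

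Adam17 releases tumour necrosis factor and ligands of the EGF receptor from the cell surface. Its level was 77, 71.1, 59.6 and 56.1 CPM at day 7 against 22.7, 20.2, 22.1 and 23.3 CPM uninjured in old vehicle muscle, and 59.5, 54.7, 62.4 and 51.1 against 12.5, 16.5, 11 and 17.3 CPM in young muscle. The groups did not overlap in either age. The log2 fold changes were 1.58 ± 0.16 (SE, adjusted p = 9.96e-10) and 1.99 ± 0.17 (SE, adjusted p = 2.76e-11). Adam10, which cuts Notch receptors, rose less, by 1.26 ± 0.17 (SE, adjusted p = 9.55e-08) in old vehicle and 0.88 ± 0.17 (SE, adjusted p = 3.52e-05) in young muscle. Adam15 and Adam33 rose by 1.79 and 1.76 in old vehicle muscle and by 1.54 and 1.73 in young muscle on the log2 scale.

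Adam9, or meltrin gamma, fell to 98.1, 62.8, 64.5 and 63 CPM at day 7, against 136, 133, 149.7 and 138 CPM uninjured, in old vehicle muscle. In young muscle it fell to 74.7, 63.1, 58.9 and 61.5 CPM, against 146, 149, 144 and 147 CPM. All day 7 libraries lay below all uninjured ones, and old vehicle library 7 was the highest at day 7. The log2 fold changes were -0.95 ± 0.12 (SE, adjusted p = 9.43e-08) and -1.18 ± 0.13 (SE, adjusted p = 2.21e-09). With scaling by library size alone neither was called, and the value in old vehicle muscle turned to 0.09.

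**Figure D2:**
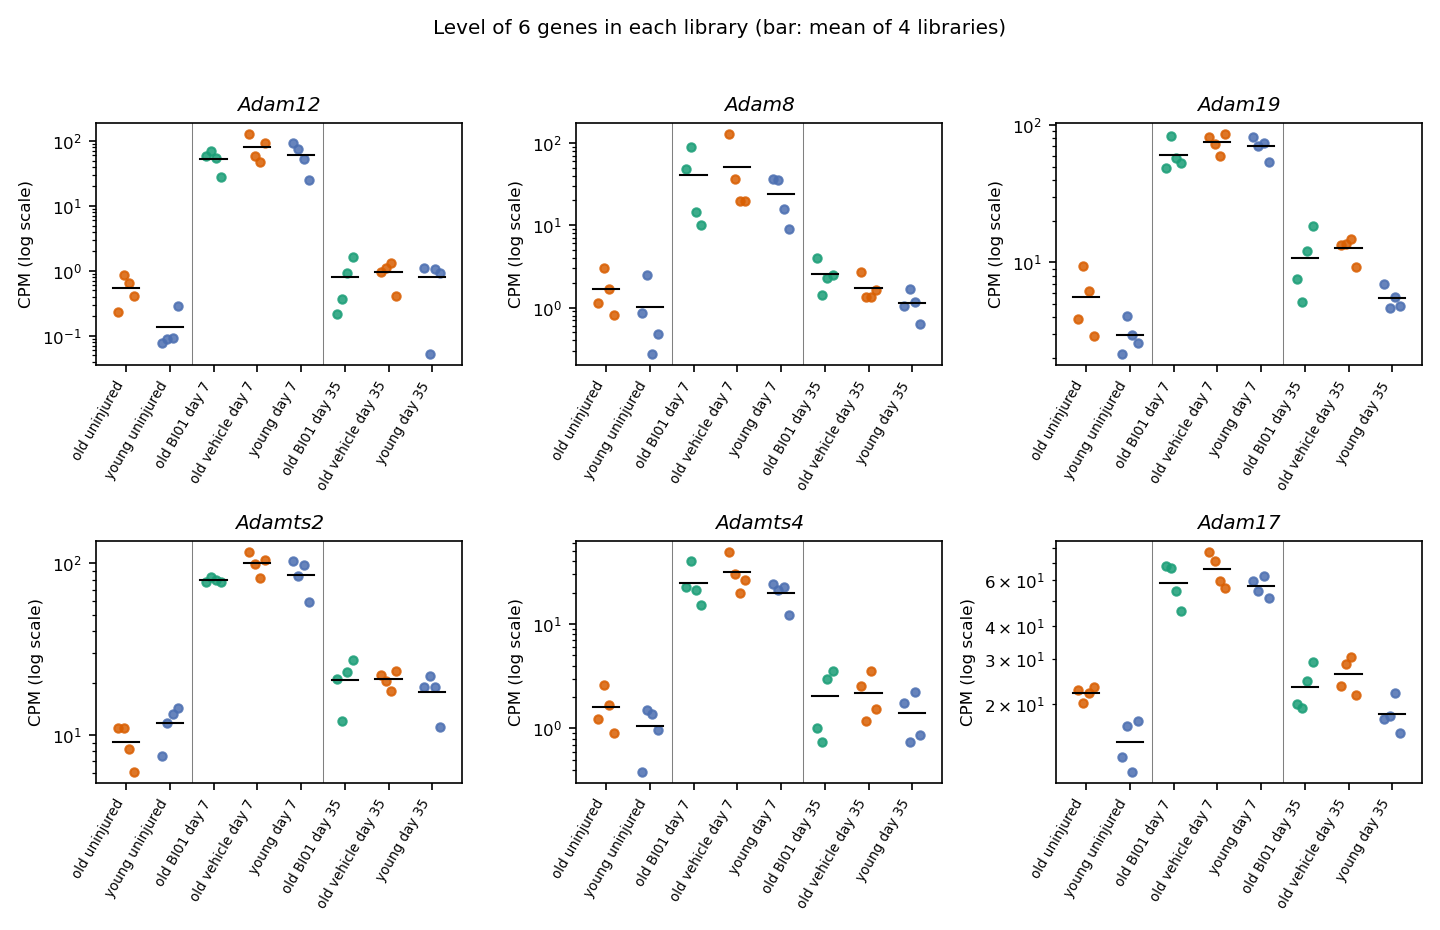
Level in CPM (log axis) of Adam12, Adam8, Adam19, Adamts2, Adamts4 and Adam17 in each of the 32 libraries, by group in order of time, with old BI01 left of old vehicle and young at each time. Points are libraries, and bars are means of 4 libraries. In each panel the 12 day 7 libraries lie above all uninjured libraries. Adam12 at day 35 is near 1 CPM in most libraries.

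The neural ADAM genes Adam11 and Adam23 encode proteins without a working active site that bind LGI proteins at synapses, and both rose at day 7 in both ages. Adam23 had 13.7, 13.7, 8.68 and 16.8 CPM at day 7 against 0.534, 1.19, 0.56 and 0.452 CPM uninjured in old vehicle muscle, and 15.4, 13, 13.6 and 7.34 against 0.619, 0.356, 1.38 and 0.868 CPM in young muscle. None of its day 7 libraries overlapped an uninjured one. Its log2 fold change was 4.21 ± 0.36 (SE, adjusted p = 3.95e-11) in old vehicle and 3.94 ± 0.37 (SE, adjusted p = 2.56e-10) in young muscle. Adam11 rose by 2.83 and 3.33 on the log2 scale, and by 4.10 in young muscle without uninjured library 4. Adam22, the other neural gene tested, was not called, at 0.35 in old vehicle and 0.69 in young muscle. Of the germ cell genes only Adam1a and Adam5 were tested, and Adam5 was called. Adam5 rested on 44 counts at day 7 and 0 uninjured in old vehicle muscle, at least 10.4-fold higher (floor of 3 counts over the group), and on 52 counts against 1 in young muscle, a ratio of 27.0 (exact 95% interval 4.63 to 1.09e+03, counting error only). In young muscle its call was lost without uninjured library 1, 2 or 3 or day 7 library 6.

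The 3 procollagen proteinases remove the amino-terminal propeptide of fibrillar collagens. Adamts2 had 116, 98.4, 81.7 and 105 CPM at day 7 against 11, 10.9, 8.24 and 6.1 CPM uninjured in old vehicle muscle, and 103, 84.1, 97 and 59.3 against 7.5, 11.8, 13.2 and 14.4 CPM in young muscle. Its lowest day 7 library was over 4 times its highest uninjured one. It rose by 3.47 ± 0.24 (SE, adjusted p = 8.56e-13) in old vehicle and 2.88 ± 0.24 (SE, adjusted p = 2.08e-11) in young muscle.

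Adamts14 had 0.534, 4.1, 2 and 0.814 CPM uninjured, 60.4, 37.6, 21.4 and 27.5 CPM at day 7 and 2.73, 3.44, 2.46 and 3 CPM at day 35 in old vehicle muscle. In young mice the values were 0.0773, 0.89, 0.644 and 2.03 CPM uninjured, 38.2, 34.1, 26.4 and 11.2 CPM at day 7 and 1.94, 0.744, 2.67 and 3.21 CPM at day 35. The uninjured and day 35 levels were low and scattered, and all 8 day 7 libraries were higher. The log2 fold change was 4.24 ± 0.57 (SE, adjusted p = 2.68e-07) in old vehicle and 4.96 ± 0.64 (SE, adjusted p = 1.6e-07) in young muscle. It was 5.07 without old uninjured library 7 and 5.71 without young uninjured library 4. Adamts3 was at most 3.13 CPM in the day 7 libraries of either age. It rose in old vehicle muscle by 2.79 ± 0.93 (SE, adjusted p = 0.0103), and in young muscle its value was 2.46 ± 1.14 (SE, adjusted p = 0.0618), which was called with scaling by library size alone, with DESeq2, and without young uninjured library 2 or day 7 library 4 or 6.

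Of the 7 genes that cut versican, aggrecan and related proteoglycans, 5 rose in old vehicle muscle with none falling, and in young muscle the same 5 rose and 2 fell. Adamts4, an aggrecanase, had 1.22, 2.59, 1.68 and 0.904 CPM uninjured, 48.8, 29.96, 19.9 and 26.4 CPM at day 7 and 2.54, 1.17, 3.52 and 1.54 CPM at day 35 in old vehicle muscle. Values in young muscle were 0.387, 1.51, 1.38 and 0.965 CPM uninjured, 24.3, 21, 22.5 and 12.3 CPM at day 7 and 1.74, 0.744, 2.24 and 0.862 CPM at day 35. The day 7 libraries were well above the rest, and uninjured and day 35 libraries overlapped. Its log2 fold change at day 7 was 4.26 ± 0.47 (SE, adjusted p = 5.17e-09) in old vehicle and 4.25 ± 0.50 (SE, adjusted p = 2.2e-08) in young muscle. Adamts15 rose by 2.55 and 3.10, and Adamts9 by 1.80 and 1.26, in old vehicle and young muscle on the log2 scale.

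Adamts5, the other main aggrecanase of mouse cartilage, had 16, 10.7, 9.52 and 8.5 CPM uninjured, 23.2, 32.6, 25.7 and 53.5 CPM at day 7 and 34.5, 42.1, 36.9 and 27.1 CPM at day 35 in old vehicle muscle. The level in young muscle was 6.73, 22.2, 13 and 20.2 CPM uninjured, 56.4, 37.3, 45.1 and 79.8 CPM at day 7 and 31.7, 90.5, 68 and 36.7 CPM at day 35. Day 35 and day 7 libraries overlapped, and no injured library of either time overlapped its uninjured group. It rose at day 7 by 1.60 ± 0.37 (SE, adjusted p = 0.000441) in old vehicle and 1.82 ± 0.37 (SE, adjusted p = 0.000121) in young muscle.

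Adamts20 had 5.72, 3.38, 2.88 and 2.21 CPM uninjured, 4.64, 14.4, 15.8 and 26.9 CPM at day 7 and 8.26, 5.59, 9.78 and 9.07 CPM at day 35 in old vehicle muscle. In young muscle it had 1.16, 1.78, 0.828 and 0.772 CPM uninjured, 20.4, 23.1, 21.4 and 29.1 CPM at day 7 and 2.26, 3.61, 4.91 and 4.78 CPM at day 35. All young day 7 libraries were above 20 CPM, while old vehicle library 7 of day 7 lay within the uninjured range. It rose by 2.13 ± 0.36 (SE, adjusted p = 6.09e-06) in old vehicle and 4.36 ± 0.42 (SE, adjusted p = 3.79e-10) in young muscle.

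Adamts1, a versican-cleaving enzyme known as a gene induced by inflammation, went the other way in young muscle. Old vehicle muscle had 27.2, 26.2, 35 and 24.2 CPM uninjured, 21.8, 18.8, 22.1 and 21.1 CPM at day 7 and 20.3, 23.5, 22.4 and 16.3 CPM at day 35. Young muscle had 88.2, 79.5, 54.4 and 47.1 CPM uninjured, 13.9, 22.1, 16.2 and 25.6 CPM at day 7 and 40.7, 32.9, 29.2 and 22.8 CPM at day 35. Young uninjured libraries were above all other libraries. It fell in young muscle, with a log2 fold change of -1.79 ± 0.20 (SE, adjusted p = 4.38e-09), and in old vehicle muscle its value was -0.42 ± 0.19 (SE, adjusted p = 0.0548), which became 0.59 with scaling by library size alone. Adamts8 fell in young muscle, with a log2 fold change of -1.97 ± 0.73 (SE, adjusted p = 0.0215), a call lost without young day 7 library 6 and with scaling by library size alone. Its value in old vehicle muscle was 0.38 ± 0.72 (SE, adjusted p = 0.658).

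Adamts7 and Adamts12 cut the cartilage protein COMP, and both rose at day 7 in both ages. Adamts12 had 2.14, 3.15, 2.32 and 1.72 CPM uninjured, 51.3, 47.2, 41.1 and 69.9 CPM at day 7 and 8, 7, 10.1 and 10.9 CPM at day 35 in old vehicle muscle. The young libraries held 1.55, 2.85, 1.2 and 2.6 CPM uninjured, 63.4, 42.9, 29.7 and 33.6 CPM at day 7 and 4.2, 4.68, 5.49 and 3.45 CPM at day 35. Day 7 was highest, and every day 35 library was still above every uninjured one. It rose at day 7 by 4.48 ± 0.33 (SE, adjusted p = 2.75e-12) in old vehicle and 4.38 ± 0.34 (SE, adjusted p = 7.78e-12) in young muscle. Adamts7 had 25.7, 24.4, 17.9 and 20.4 CPM at day 7 against 0.381, 3.23, 1.44 and 0.768 CPM uninjured in old vehicle muscle, and 19.1, 20.8, 21.7 and 13.2 against 0.232, 1.33, 1.1 and 0 CPM in young muscle. Its groups did not overlap. It rose by 3.85 ± 0.43 (SE, adjusted p = 5.51e-09) in old vehicle muscle, or 4.69 without uninjured library 7, and by 4.80 ± 0.49 (SE, adjusted p = 1.33e-09) in young muscle.

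Adamts6 and Adamts10 act at fibrillin microfibrils and both rose at day 7, by 2.62 and 2.47 in old vehicle and 1.85 and 2.32 in young muscle on the log2 scale. Adamts16 and Adamts17, whose substrates are less well known, also rose. Adamts16 had 5.35, 1.75, 2.41 and 1.32 CPM at day 7 against 0.305, 0.0796, 0.08 and 0.136 CPM uninjured in old vehicle muscle, and 5.38, 3.48, 2.25 and 1.47 against 0, 0, 0 and 0.386 CPM in young muscle. Its young uninjured counts all came from library 4. Its log2 fold changes were 4.19 ± 0.75 (SE, adjusted p = 1.42e-05) in old vehicle and 5.03 ± 0.84 (SE, adjusted p = 6.31e-06) in young muscle. Without young uninjured library 4 the fitted value was 8.90, against libraries with no counts, and is no bound. Adamts17 rose by 3.06 and 4.47 in old vehicle and young muscle.

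Among the ADAMTS-like genes, Adamtsl1, Adamtsl2 and Adamtsl3 rose in both ages, by 1.72, 3.32 and 2.38 in old vehicle and 0.83, 2.73 and 1.87 in young muscle on the log2 scale. Adamtsl2, a fibrillin-binding protein, was 4.18 without old uninjured library 7 and 3.72 without young uninjured library 3. The call of Adamtsl1 in young muscle was lost without uninjured library 2 or 4 or day 7 library 6. Adamtsl5 fell to 23.4, 23.8, 37.5 and 23 CPM at day 7, against 53.3, 35.6, 44.7 and 39.7 CPM uninjured, in old vehicle muscle, with a log2 fold change of -0.69 ± 0.25 (SE, adjusted p = 0.0186). Library 9 of day 7 lay within the uninjured range, the call was lost without uninjured library 6 or day 7 library 7 or 10, and scaling by library size alone turned the value to 0.32. In young muscle the value was 0.45 ± 0.25 (SE, adjusted p = 0.127).

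**Figure D3:**
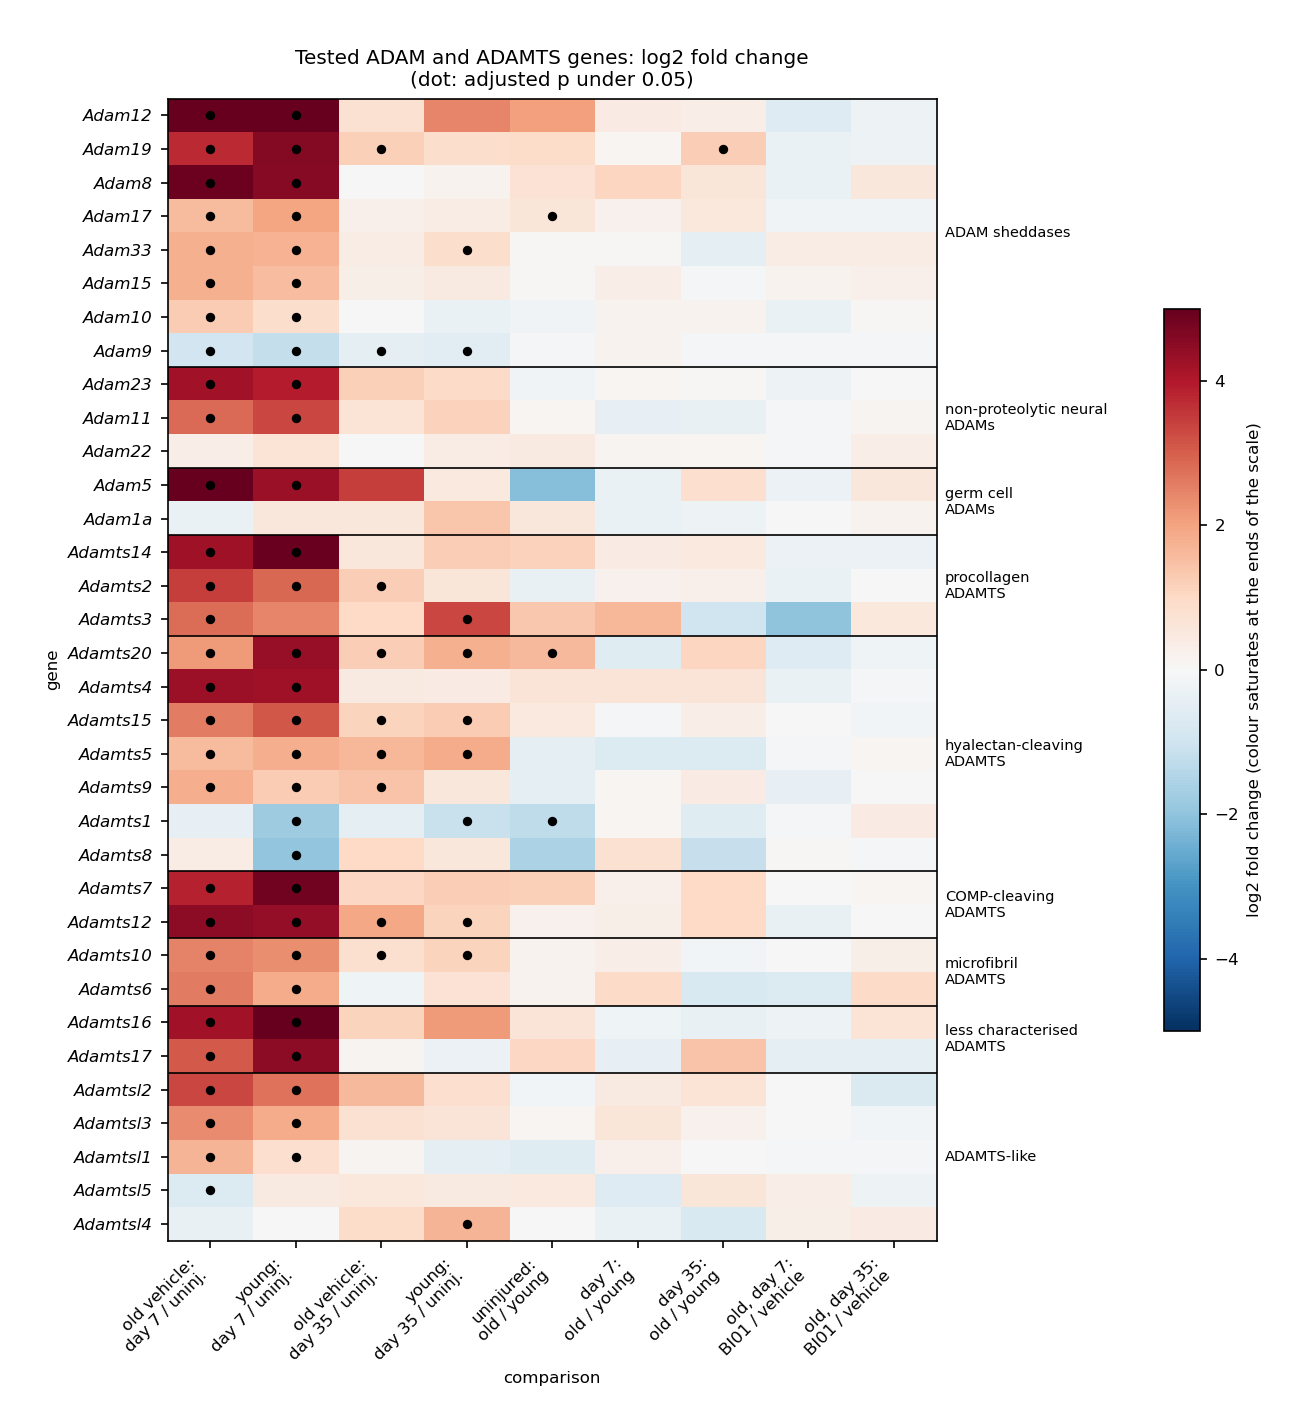
Log2 fold change of each of the 34 tested genes (rows, grouped by role) in 9 comparisons (columns), red for higher and blue for lower in the group named first. Dots mark genes called at an adjusted p under 0.05, and the colour saturates at 5. The 2 day 7 columns are red with few exceptions, the day 35 columns are paler, and the BI01 columns carry no dot.

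Markers of several cell types moved with day 7. All 6 macrophage markers rose in both ages, with a summed level of 536.4 to 1018 CPM at day 7 against 8.68 to 66.9 CPM uninjured in old vehicle muscle, and 298.4 to 590.1 against 15.5 to 58.2 CPM in young muscle. Fibroblast markers rose in 6 of 7 genes, with 7855 to 12270 CPM at day 7 against 163.2 to 469.7 CPM uninjured in old vehicle muscle, and 6437 to 9678 against 247.3 to 459.2 CPM in young muscle. Myoblast and satellite cell markers rose in 6 of 6 genes in both ages, with 241.5 to 473.4 against 42.4 to 146.7 CPM in old vehicle and 200.5 to 286.6 against 35.3 to 59.9 CPM in young muscle. Fibre markers fell in 6 of 8 genes in old vehicle muscle, with 10200 to 63080 CPM at day 7 against 178200 to 183700 CPM uninjured. In young muscle 4 of the 8 fell and 1 rose, with 65930 to 138400 against 198700 to 255400 CPM. Of 4 tested neutrophil markers 1 rose in old vehicle and 2 in young muscle. Of 5 mural markers 3 rose in each age, while 2 fell in old vehicle and 1 in young muscle. Endothelial markers rose in 3 of 5 genes in each age, and 1 fell in old vehicle muscle. Tenocyte and T cell markers rose in 3 of 4 genes in each age. Schwann cell markers fell in 1 of 4 genes in old vehicle and 2 of 4 in young muscle. The 1 tested B and plasma cell marker fell in old vehicle muscle. The part of these cell types in the changes of the protease genes was not tested.

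The proteases' inhibitors, helpers and substrates were read from whole lists of known genes. Other scalings were read for the protease family only. How far the falls of Timp3, Timp4 and Rhbdf2 given below depend on the scaling was therefore not tested. Library size alone moved the median of all genes to 1.15 in old vehicle and 1.05 in young muscle. Of 7 inhibitor and clearance genes, 5 rose and 2 fell in old vehicle muscle, and 4 rose and 2 fell in young muscle, which is 100% and 85.7% called beside 64.2% and 60.8% of all tested genes. Timp3, the tissue inhibitor that acts on Adam17 and on the aggrecanases, averaged 18.4 CPM at day 7 and 54.8 CPM uninjured in old vehicle muscle, and 21.9 and 68.5 CPM in young muscle. It fell in both, with log2 fold changes of -1.57 ± 0.21 (SE, adjusted p = 1.11e-07) and -1.65 ± 0.21 (SE, adjusted p = 5.65e-08). Timp4 fell, at -5.0 in old vehicle and -3.31 in young muscle, while Timp1 rose by 4.45 and 4.45. Lrp1, the receptor that takes up ADAMTS enzymes, rose by 3.91 and 2.76.

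Of 12 tested maturation and trafficking genes, 6 rose and 1 fell in old vehicle muscle, and 5 rose and 2 fell in young muscle. That is 58.3% called in each age, no more than the 64.2% and 60.8% of all tested genes. Rhbdf2, an inactive rhomboid that carries Adam17 to the cell surface, averaged 19.6 CPM at day 7 and 38.3 CPM uninjured in old vehicle muscle, and 16.4 and 85.1 CPM in young muscle, with log2 fold changes of -0.96 ± 0.20 (SE, adjusted p = 9.06e-05) and -2.38 ± 0.21 (SE, adjusted p = 5.04e-11). Tspan5 and Tspan14, tetraspanins that escort Adam10, rose by 1.91 and 0.99 in old vehicle and 1.67 and 1.57 in young muscle. Of 11 tested matrix substrates, 8 rose and 1 fell in old vehicle muscle and 9 rose and 1 fell in young muscle (81.8% and 90.9% called). Vcan, which encodes versican, averaged 77.9 CPM at day 7 and 2.3 CPM uninjured in old vehicle muscle, and 56.6 and 2.42 CPM in young muscle. Col1a1 rose by 6.83 and 6.56. Of 16 tested genes for shed proteins, 13 rose and 1 fell in old vehicle muscle (87.5% called) and 9 rose in young muscle (56.2% called, under the 60.8% of all tested genes). Among those that rose in both ages were Notch1, by 1.76 and 1.51, and Cxcl16, by 4.09 and 4.76.

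By day 35 fewer genes of the family differed from uninjured muscle. In old vehicle muscle 8 of 34 rose and 1 fell, against a background of 5.64% of all tested genes, and in young muscle 8 rose and 2 fell, against 15.7%. The family's median log2 fold change was 0.76 and 0.78, beside 0.02 and 0.13 for all tested genes. Of the 8 genes higher in each age, 5 were the same: Adamts5, Adamts10, Adamts12, Adamts15 and Adamts20, which is 62.5% of either list. Adam9 was lower in both. Scaling by library size alone called 14 higher and 1 lower in young muscle, and 8 higher and 0 lower in old vehicle muscle. With limma voom in place of edgeR, 5 genes were called in young muscle, and without old uninjured library 8 or library 9, 5 were called in old vehicle muscle.

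Adamts5 was among the largest changes at day 35, by 1.66 ± 0.37 (SE, adjusted p = 0.00628) in old vehicle and 1.87 ± 0.37 (SE, adjusted p = 0.00103) in young muscle, with the library values given above. Adamts12 rose by 1.94 ± 0.31 (SE, adjusted p = 0.000226) in old vehicle and 1.13 ± 0.34 (SE, adjusted p = 0.0217) in young muscle, a call in young muscle that was lost without young uninjured library 1 or 3 or day 35 library 3. Adamts20 rose by 1.21 ± 0.36 (SE, adjusted p = 0.0386) and 1.76 ± 0.42 (SE, adjusted p = 0.00435), and its call in old vehicle muscle was lost without any 1 of uninjured libraries 7, 8 and 9 or day 35 libraries 6, 8 and 9. Adamts15 had 8, 4.24, 5.84 and 5.83 CPM at day 35 against 2.9, 3.35, 2.08 and 2.58 CPM uninjured in old vehicle muscle, and 6, 4.36, 3.39 and 5.09 against 1.55, 2.31, 1.84 and 2.12 CPM in young muscle. The groups did not overlap. It rose by 1.12 ± 0.32 (SE, adjusted p = 0.0315) and 1.27 ± 0.34 (SE, adjusted p = 0.0103), and the call in old vehicle muscle was lost without uninjured library 6, 8 or 9 or day 35 library 6, 8 or 9.

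Adamts10 had 12.3, 8.47, 9.29 and 8.26 CPM at day 35 against 6.03, 6.93, 4.32 and 4.66 CPM uninjured in old vehicle muscle, and 14.3, 9.04, 7.87 and 10.4 against 4.41, 5.87, 4.14 and 4.92 CPM in young muscle. All day 35 libraries were higher than all uninjured ones. The log2 fold changes were 0.80 ± 0.21 (SE, adjusted p = 0.0202) and 1.10 ± 0.22 (SE, adjusted p = 0.000805), and the call in old vehicle muscle was lost without uninjured library 8 or 9 or day 35 library 6. Adam9 was lower, at -0.50 ± 0.12 (SE, adjusted p = 0.0125) and -0.51 ± 0.12 (SE, adjusted p = 0.00497), with 100.2, 91, 103 and 100.3 CPM in old vehicle and 94.3, 107, 111 and 99.8 CPM in young muscle at day 35. In old vehicle muscle that call was lost without uninjured library 8 or day 35 library 7, and in both ages with scaling by library size alone.

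Adamtsl4, a fibrillin-binding protein of connective tissue, had 15.3, 9.84, 9.44 and 12.1 CPM uninjured, 9.19, 7.93, 12.8 and 6.35 CPM at day 7 and 19.6, 21.6, 25.7 and 21.1 CPM at day 35 in old vehicle muscle. In young mice the values were 6.5, 20.3, 5.61 and 14.6 CPM uninjured, 9.52, 13.7, 8.44 and 14.6 CPM at day 7 and 36.3, 35.9, 38.8 and 39.6 CPM at day 35. It was not called at day 7, and no day 35 library overlapped an uninjured one in either age. It rose by 1.68 ± 0.30 (SE, adjusted p = 0.000344) in young muscle, and its value in old vehicle muscle was 0.92 ± 0.30 (SE, adjusted p = 0.0678), which limma voom, DESeq2 and the fit on the compared groups alone called. Adamts3 rose in young muscle at day 35 by 3.34 ± 1.12 (SE, adjusted p = 0.0402), at levels of 0.258, 1.54, 1.01 and 1.02 CPM against 0, 0.267, 0 and 0.0965 CPM uninjured. This value was 4.74 without young uninjured library 2, and the call was lost without uninjured library 1, 3 or 4 or day 35 library 2, 3 or 4. Adam33 rose in young muscle by 0.89 ± 0.31 (SE, adjusted p = 0.0496), a call lost without any 1 of 6 of the 8 libraries compared, namely uninjured libraries 1, 2 and 3 and day 35 libraries 1, 2 and 4. Adamts1 was lower in young muscle, at -1.10 ± 0.19 (SE, adjusted p = 0.000235), and its value in old vehicle muscle was -0.44 ± 0.19 (SE, adjusted p = 0.215).

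A further 3 genes rose at day 35 in old vehicle muscle. Adamts2 had 22.2, 20.5, 17.9 and 23.6 CPM against 11, 10.9, 8.24 and 6.1 CPM uninjured, and rose by 1.22 ± 0.23 (SE, adjusted p = 0.00106). Adamts9 had 7.56, 11, 9.64 and 12.5 CPM against 4.27, 2.67, 3.84 and 4.29 CPM uninjured, and rose by 1.44 ± 0.27 (SE, adjusted p = 0.00107). Neither overlapped. Adam19 rose by 1.18 ± 0.31 (SE, adjusted p = 0.0178), a call lost without uninjured library 6 or 9 or day 35 library 8. In young muscle the values of these 3 genes were 0.61, 0.58 and 0.90, none called. Fibroblast markers were higher in 6 of 7 genes in old vehicle and in 4 of 7 in young muscle at day 35, with summed levels of 890.2 to 1205 and 522.0 to 914.2 CPM, while 0 of 6 macrophage markers were called. In old vehicle muscle 2 of 5 mural and 2 of 5 endothelial markers were also higher, with summed levels of 544.3 to 624.6 against 354.8 to 390 CPM uninjured for mural and 259.1 to 321.9 against 175.7 to 216.6 CPM for endothelial markers, without overlap. In old vehicle muscle 1 gene each of the tenocyte, T cell, Schwann cell and muscle fibre lists was lower. In young muscle 1 of 5 mural and 0 of 5 endothelial markers were called, and of 4 tenocyte markers 1 was higher and 1 lower. Of 4 Schwann cell markers 1 was lower in young muscle. Their part in these changes was not tested. No gene of the family was called for a difference in its day 35 change between old vehicle and young muscle (0 by edgeR, background 0%), with the smallest p for Adamts1, at a difference of 0.65 (unadjusted p = 0.0223), and Adamts9, at 0.86 (unadjusted p = 0.031). In all 2 were under an unadjusted 0.05, and no other tool run called any.

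**Figure D4:**
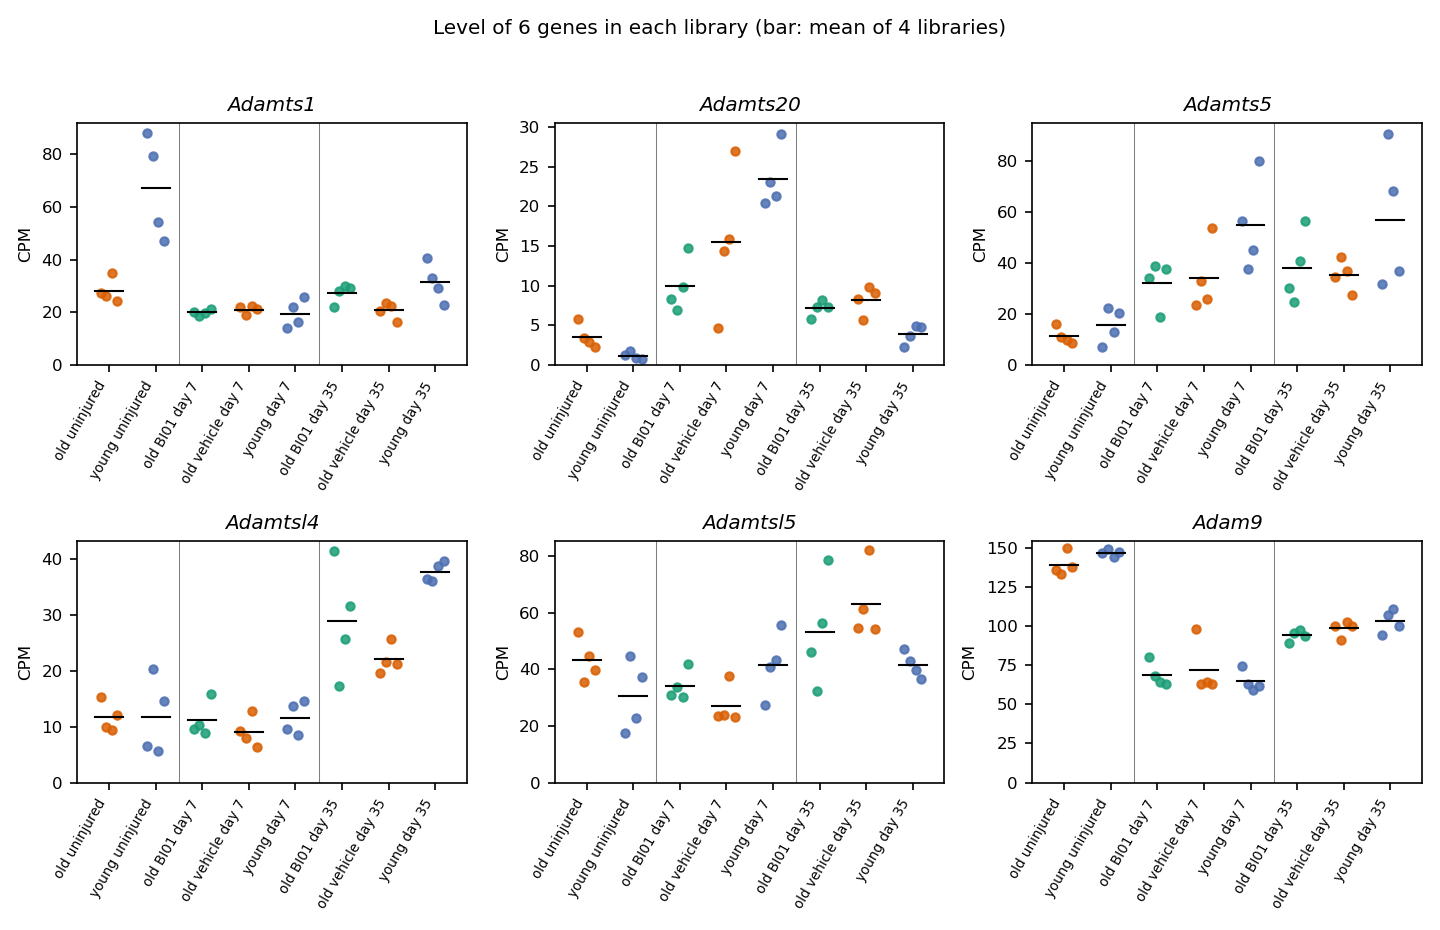
Level in CPM (linear axis from 0) of Adamts1, Adamts20, Adamts5, Adamtsl4, Adamtsl5 and Adam9 in each library, by group in order of time, with old BI01 left of old vehicle and young at each time. Points are libraries, and bars are means of 4 libraries. Adamts1 is highest in the 4 young uninjured libraries, at 47.1 to 88.2 CPM. Adamts5 stays high at day 35, Adamtsl4 is high at day 35 and not at day 7, and Adam9 is lowest at day 7.

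Day 35 was also set against day 7, in a pair of comparisons added after the data had been seen. In old vehicle muscle 23 genes fell and 3 rose between these times, against a background of 58.9%. In young muscle 25 fell and 4 rose, against 55.3%. With scaling by library size alone, 30 fell and 0 rose in old vehicle muscle and 27 fell and 2 rose in young muscle. Values are log2 fold changes, old vehicle muscle first. Adam12 fell the most, at -6.40 ± 0.54 (SE, adjusted p = 2.32e-10) in old vehicle and -6.33 ± 0.55 (SE, adjusted p = 4.24e-10) in young muscle. Adam8 fell, at -4.86 ± 0.75 (SE, adjusted p = 3.85e-06) in old vehicle muscle, or -3.86 without day 7 library 7, and at -4.38 ± 0.76 (SE, adjusted p = 2.37e-05) in young muscle. Adamts4 fell, at -3.83 and -3.85, and Adamts14 at -3.66 and -3.71. Adam19 fell, at -2.56 and -3.68, Adam23 at -3.02 and -2.98, Adamts16 at -3.08 and -2.92 and Adamts17 at -2.91 and -4.74. Adamtsl4 rose by 1.28 ± 0.30 (SE, adjusted p = 0.000522) and 1.71 ± 0.30 (SE, adjusted p = 1.89e-05). Adam9 rose by 0.45 and 0.67, but with scaling by library size alone it was called lower in old vehicle muscle, at -0.53, and was just under 0 and not called in young muscle. Adamts5 did not pass the test between day 35 and day 7 in either age.

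Age was compared at each time among vehicle groups. In uninjured muscle 3 genes differed, 2 higher and 1 lower in old mice, against a background of 13.4%. Scaling by library size alone called 4 higher and 1 lower. Adamts1 had 27.2, 26.2, 35 and 24.2 CPM in old and 88.2, 79.5, 54.4 and 47.1 CPM in young uninjured muscle. Adamts20 had 5.72, 3.38, 2.88 and 2.21 CPM in old and 1.16, 1.78, 0.828 and 0.772 CPM in young. Adam17 had 22.7, 20.2, 22.1 and 23.3 CPM in old and 12.5, 16.5, 11 and 17.3 CPM in young. None of the 3 overlapped between the ages, and old libraries were lower for Adamts1 and higher for the other genes. The log2 fold changes were -1.26 ± 0.19 (SE, adjusted p = 0.000123) for Adamts1, 1.62 ± 0.42 (SE, adjusted p = 0.00941) for Adamts20 and 0.62 ± 0.16 (SE, adjusted p = 0.0104) for Adam17. Leaving out young library 1 or 3 ended the call of Adam17, and limma voom ended that of Adamts20. Without young uninjured library 2, 5 genes were called in place of 3. Adamts8 was also lower in every old library, with 1.14, 1.23, 0.4 and 0.136 CPM in old and 2.55, 1.96, 2.58 and 1.74 CPM in young, and missed the threshold at -1.59 ± 0.73 (SE, adjusted p = 0.151). Markers of other cells differed with age too: 2 of 4 neutrophil and 3 of 6 myoblast genes were higher in old uninjured muscle, as was 1 gene each of the tenocyte, T cell, mural and muscle fibre lists, and 0 of 6 macrophage markers were called. Summed levels were 1.60 to 8.41 CPM in old and 0.579 to 1.10 CPM in young uninjured muscle for neutrophil markers, and 42.4 to 146.7 against 35.3 to 59.9 CPM for myoblast markers. Their part in these differences was not tested.

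At day 7 no gene of the family was called between old vehicle and young muscle (0 of 34 called by edgeR, background 2.43%), with 3 at an unadjusted p under 0.05 and 1 called by limma voom. Those 3 were Adamts6 at 0.94, Adamtsl3 at 0.60 and Adamtsl5 at -0.63 on the log2 scale (adjusted p = 0.168, 0.263 and 0.163). At day 35 only Adam19 was called, against a background of 3.51%. It had 13.5, 13.6, 14.7 and 9.23 CPM in old vehicle and 6.97, 4.62, 5.56 and 4.78 CPM in young muscle, without overlap, and was higher in old vehicle muscle by 1.22 ± 0.31 (SE, adjusted p = 0.0214). Leaving out young library 2, 3 or 4, or old vehicle library 6, 7 or 8, ended this call. With the fit on the compared groups alone 9 genes were called, with DESeq2 4, and with no filter on low counts 0. Adamts12, at 8, 7, 10.1 and 10.9 CPM in old vehicle and 4.2, 4.68, 5.49 and 3.45 CPM in young muscle, did not overlap and had a value of 1.01 ± 0.30 (SE, adjusted p = 0.0551). The values of Adamts20 and Adamtsl4, also without overlap, were 1.07 ± 0.36 (SE, adjusted p = 0.0948) and -0.77 ± 0.29 (SE, adjusted p = 0.159). Adam17 and Adamts1 stood at 0.51 and -0.61.

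The change at day 7 itself differed between the ages for 3 genes, 1 higher and 2 lower, against a background of 7.7%. With RLE size factors or library size alone 1 was higher and 1 lower. For Adamts1 the day 7 change in old minus that in young muscle was 1.37 ± 0.27 (SE, adjusted p = 0.00361) on the log2 scale: the level fell in young muscle, where it had been high. For Adamts20 the difference was -2.23 ± 0.53 (SE, adjusted p = 0.012), and the call was lost with limma voom and with the fit on the compared groups alone. Old against young, the value of Adamts20 was 1.62 in uninjured muscle and -0.61 at day 7. For Adamtsl5 it was -1.13 ± 0.36 (SE, adjusted p = 0.0473), a call lost without young uninjured library 1 or 3, old uninjured library 6, 8 or 9, young day 7 library 5, 6 or 7 or old vehicle day 7 library 7, 8 or 10. Adamts8, at 2.35 (adjusted p = 0.153), was not called. For Adamts1 and Adamts20 the uninjured groups differed between the ages and the day 7 groups were not called different.

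BI01 was compared with vehicle in old mice at each time after injury. At day 7, 0 of 34 genes were called by edgeR, as among all tested genes (background 0%), and 0 by DESeq2 and limma voom. The 2 genes at an unadjusted p under 0.05 were Adam10 and Adamts3. Adam10 had 46, 53.2, 44.7 and 38.4 CPM with BI01 and 74.7, 49.4, 41 and 66 CPM with vehicle, overlapping groups with a log2 fold change of -0.34 (95% interval -0.67 to -0.01, unadjusted p = 0.043, adjusted p = 0.741). Adamts3 had 0.787, 0.111, 0.501 and 0.241 CPM with BI01 and 3.13, 0.694, 0.965 and 1.83 CPM with vehicle, at -2.01 (-3.77 to -0.25, unadjusted p = 0.0267, adjusted p = 0.741). The libraries of both genes overlapped between BI01 and vehicle.

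Among the genes that rose with injury, Adam12 had 58.4, 70.4, 55.1 and 28.3 CPM with BI01 and 128, 58.2, 47.3 and 94.4 CPM with vehicle at day 7. Its log2 fold change was -0.63, with a 95% interval of -1.43 to 0.18. For Adamts2, with 77.7, 83.4, 79.6 and 77.2 CPM with BI01 and 116, 98.4, 81.7 and 105 CPM with vehicle, the interval was -0.77 to 0.10. For Adam19 it was -0.89 to 0.26, and for Adamts4 -1.13 to 0.45. Adam8 had 48.6, 89.6, 14.6 and 10.1 CPM with BI01 and a value of -0.32 (-1.56 to 0.91), which became 0.68 without old vehicle library 7. Each of these intervals includes 0, and differences inside them were not detectable with these libraries.

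At day 35, 0 of 34 genes were called between BI01 and vehicle by edgeR (background 0%) and 0 by DESeq2 and limma voom, with 1 at an unadjusted p under 0.05. That gene was Adamts6, at 2.73, 2.31, 2.21 and 1.44 CPM with BI01 and 1.78, 0.675, 0.914 and 1.13 CPM with vehicle, with a log2 fold change of 0.94 (0.07 to 1.81, unadjusted p = 0.0343). Adamts1 had 21.8, 27.9, 29.7 and 29.1 CPM with BI01 and 20.3, 23.5, 22.4 and 16.3 CPM with vehicle, at 0.40 (-0.0 to 0.79). The intervals were -0.50 to 0.16 for Adam17, -0.26 to 0.41 for Adam10 and -0.85 to 0.37 for Adam19. Within the BI01 group, library 9 was the highest for 21 of 34 genes and library 7 the lowest for 22, with summed fibroblast markers of 1704 and 370.3 CPM. For the difference in the effect of BI01 between day 35 and day 7 no gene was called (0 by edgeR, DESeq2 and limma voom, background 0%, 2 at an unadjusted p under 0.05): the smallest p-values were those of Adamts6, at 1.65 (unadjusted p = 0.00688), and Adamts3, at 2.54 (unadjusted p = 0.0498).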

How the data were processed

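RNA was extracted with Qiagen miRNeasy Mini kits and sequenced by Novogene, per the labels' protocols. The authors deposited whole read counts per gene for 32 libraries, with gene length beside them. HISAT2 and mm10 are named in the submitters' processing notes. For the counting tool, versions and strand setting the sources used here give nothing. Gene lengths, as deposited by the authors, were used for levels per kilobase, and coordinates are those of the deposited table.

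edgeR 4.0.16 (R 4.3.3) was fitted to all 17121 genes that passed its filter on low counts, with TMM scaling, 1 mean per group over the 8 groups and robust quasi-likelihood tests. P-values were adjusted by Benjamini-Hochberg over all tested genes, with a threshold of 0.05. In all 11 comparisons of 2 groups and 3 differences of differences were made. The tests were run on simulated data in which few genes changed, equally up and down. This cannot check the scaling where most genes change, as at day 7. Alternatives were RLE factors, library size alone, 2 other filters, limma voom 3.58.1, DESeq2 1.42.0, a fit on the compared groups and leaving out each library. No 2 libraries of a group agreed within sampling noise.

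The members and lists were chosen with earlier results of these data known. In each comparison up to 6 called genes with the largest log2 fold change and a mean of at least 2 CPM were described by library, and 11 genes could be given throughout. Other genes named without a call were chosen after their values were seen. The exact interval of a count ratio and the floors (3 counts) cover counting error only. Intervals of log2 fold changes come from the edgeR fit and include the spread among libraries.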

Additional observations from a re-analysis of the deposited data

Results flagged for a closer look

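In 14 of the 271 group values examined, 1 library of 4 stood apart from the other 3, where chance gives about 1 in 20. The ratio given is the gap to the nearest library over the range of the group. At day 7, old vehicle library 7 stood high for Adam8, with 127 CPM against 19.8 to 36.8 CPM in the others (ratio 0.842), and for Adam9, with 98.1 against 62.8 to 64.5 CPM (0.951). The same library had the lowest summed fibre markers of its group, and the part of that in these values was not tested. Old vehicle library 9 at day 7 was high for Adamtsl5, with 37.5 against 23.0 to 23.8 CPM (0.946). BI01 library 3 at day 7 was low for Adam33, with 9.34 against 12.0 to 12.2 CPM (0.937).

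The others were at low levels. Young uninjured library 4 was high for Adam12, with 0.289 against 0.0773 to 0.0920 CPM (0.931), and was the only library of its group with counts for Adam5 and for Adamts16 (1.0 each). Young day 35 library 4 was likewise the only one with counts for Adam5 (1.0). Young day 35 library 2 was low for Adam12, with 0.0532 against 0.941 to 1.10 CPM (0.849), and high for Adamts16, with 0.744 against 0.258 to 0.314 CPM (0.886). Old uninjured library 7 was high for Adam23, with 1.19 against 0.452 to 0.560 CPM (0.854), and old uninjured library 9 for Adamts17, with 0.769 against 0.229 to 0.320 CPM (0.831). Adamts3 was high in old BI01 library 9 of day 35, with 1.87 against 0.201 to 0.432 CPM (0.861), and in old vehicle library 7 of day 35, with 1.04 against 0.211 to 0.324 CPM (0.864).

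The day 7 change differed between old and young muscle, by the test of the difference itself, for Adamts1 (1.37 on the log2 scale, old minus young), Adamts20 (-2.23) and Adamtsl5 (-1.13).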

How the results depend on the processing

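Counts of called genes at day 7 against uninjured muscle were 28 to 31 in old vehicle and 28 to 32 in young muscle under every alternative run, and 0 for BI01 at either time. At day 35 against uninjured muscle, limma voom called 5 genes in young muscle, and leaving out 1 library gave 5 to 10 in old vehicle muscle and 7 to 13 in young muscle. Between the ages in uninjured muscle, library size alone called 5 and leaving out 1 library gave 2 to 5. Between the ages at day 7, limma voom called 1. At day 35 no filter gave 0, DESeq2 4, the compared groups alone 9 and leaving out 1 library 0 to 1. For the difference of the day 7 change between the ages, the compared groups alone called 1. The cause was not tested. Of 2797 alternatives over 177 values of named genes, 2638 kept direction and side of the threshold, 115 lost the threshold, 38 gained it and 6 reversed. With library size alone the reversed values were 0.0856 for Adam9, old vehicle, day 7 against uninjured, 0.32 for Adamtsl5, old vehicle, day 7 against uninjured, 0.59 for Adamts1, old vehicle, day 7 against uninjured, -0.53 for Adam9, old vehicle, day 35 against day 7, and -0.0022 for Adam9, young, day 35 against day 7. Leaving out 1 library gave -1.06 to 0.68 for Adam8, BI01 against vehicle, old, day 7, the highest without old vehicle library 7. The table's library numbers differ from the titles' replicate numbers but recur between some groups. With that number as a replicate block, a fit added after the data were seen, 29 genes were called at day 7 in old vehicle muscle, 9 at day 35 in young and 8 in old vehicle muscle, 26 for day 35 against day 7 in old vehicle muscle, and 0 for BI01 at day 35. Deviations of same-numbered libraries correlated at -0.0322 to 0.161 between young day 35 and uninjured muscle, where 3 of 4 numbers matched best with their own, and at 0.00889 to 0.109 in old vehicle muscle, where 2 of 4 did. Between old vehicle day 7 and uninjured muscle the correlations were 0.0408 to 0.152, and all 3 shared numbers matched best with their own. Between old vehicle day 35 and day 7, and between BI01 and vehicle at day 35, no number did so in both directions. Matching did not hold in every comparison, so the numbers were not taken to pair the libraries. Under the block edgeR did not call Adam33, young, day 35 against uninjured (adjusted p = 0.0648), or Adamts15, old vehicle, day 35 against uninjured (adjusted p = 0.0516). Genes under about 1 CPM rest on few counts, and 4 libraries a group set the precision of the BI01 intervals.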
